A study of Mus musculus with 10 samples.

Results

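The variable (V) genes of the T cell receptor alpha and beta chains were followed in T cells of mouse lung tumours: every gene of the single-cell gene list whose symbol starts with Trav (alpha chain, 128 genes) or Trbv (beta chain, 35 genes), 163 of 32285 genes in all. KP lung tumour cells had been injected into the veins of syngeneic mice, and once nodules were visible by magnetic resonance imaging the mice were treated for 11 days. Treatments were SHP099 with SX682 (the combination), SHP099 alone, SX682 alone, or vehicle, with 3 mice each. SHP099 inhibits the phosphatase SHP2, and SX682 is an antagonist of CXCR1 and CXCR2, receptors for neutrophil-attracting chemokines. All groups carried the same kind of transplanted tumour, and the labels used here do not state strain, age or sex.

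Dissociated nodules were enriched for live cells with magnetic beads, and cells of the 3 mice of a treatment were tagged by mouse, pooled and captured together with a 5′ gene expression kit. With 1 capture for each treatment, the treatment cannot be told apart from its capture, and mice measure the spread within a capture only. The authors' T cell table holds 6570 of 44986 cells in 9 clusters, called states T1 to T9 here. It has 202 to 847 cells a mouse and median depths of 1205.5 to 1867 unique molecular identifiers (UMIs, each counting 1 captured RNA molecule) a cell. Of 43973 distinct barcodes 1009 occurred in more than 1 capture, 22 of them among T cells.

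A T cell receptor chain is assembled in the thymus, where the RAG recombinase joins 1 V segment to a joining segment (with a diversity segment between them in the beta chain) ahead of a constant region. The V gene a mature T cell transcribes is therefore inherited by all its descendants, and a clone that divides raises the share of its V genes. A V gene does not identify a clone, because unrelated cells use the same segment with other junctions; assembled receptor sequences were not used here. The 5′ kit reads the end of the transcript at which the V segment lies. Rag1 and Rag2, which encode the recombinase, had 0 UMIs in all 9 states.

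The 3′ ends of 8 V segments are printed because these genes are among those followed in the usage results below. Sequences are from GENCODE vM21 on mm10, the last 60 bases of the coding V exon, 5′ to 3′ on the gene's own strand. The capitals TGT mark the codon of the conserved cysteine that opens the third hypervariable loop. Bases after it are the germline start of that loop, which joining trims and extends. Trbv genes shown lie on chromosome 6, and Trbv31 is the only one of them on the minus strand.
Trbv4, chr6:41059827-41059886: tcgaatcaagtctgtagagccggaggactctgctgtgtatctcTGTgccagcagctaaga
Trbv12-1, chr6:41114008-41114067: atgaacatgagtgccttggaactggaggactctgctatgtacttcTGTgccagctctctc
Trbv12-2, chr6:41119305-41119364: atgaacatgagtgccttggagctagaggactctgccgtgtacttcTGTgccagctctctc
Trbv13-1, chr6:41116409-41116468: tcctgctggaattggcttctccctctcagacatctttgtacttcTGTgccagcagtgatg
Trbv13-2, chr6:41121773-41121832: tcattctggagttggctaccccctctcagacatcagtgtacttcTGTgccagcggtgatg
Trbv16, chr6:41152171-41152230: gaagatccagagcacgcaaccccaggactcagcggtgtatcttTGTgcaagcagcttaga
Trbv31, chr6:41557693-41557752, minus strand: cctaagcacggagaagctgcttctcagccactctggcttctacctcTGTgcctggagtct
Trav8d-2, chr14:53042832-53042891: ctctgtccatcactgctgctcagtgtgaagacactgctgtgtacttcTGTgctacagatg

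Trbv12-1 and Trbv12-2 were 88.2% identical over 372 aligned bases of coding sequence, with 44 differing positions and a longest shared run of 44 bases. The 3 Trbv13 genes were 86.1% to 90.6% identical to each other. No Trbv gene had a near-identical copy, defined as at least 98% identity over at least 200 aligned bases. Of the Trav genes 74 had one, in 51 pairs, 24 of them identical over the aligned stretch, since the mouse alpha locus carries duplicated blocks whose genes bear d and n in their symbols. Reads of such copies may be split between them or dropped, so the values of Trav3-3 and Trav6-7-dv9, which have copies, are uncertain.

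Detection followed these annotations. All 22 Trbv genes annotated as V genes had UMIs in T cells, 9183 in sum, against 27 UMIs in 2 of the 13 Trbv pseudogenes, 25 of them in Trbv24. Of Trav genes without a near-identical copy and not annotated as pseudogenes, 40 of 41 were detected with a median of 29 UMIs. Of those with a copy, 34 of 67 were detected, with a median of 1 UMI. Trbv genes summed to 9210 UMIs and were found in 51.6% of T cells, and Trav genes to 2335 UMIs in 22.3% of T cells. In the authors' neutrophil table, cells that should lack these transcripts, 1.70% (162 of 9540) had a Trbv UMI, at a median depth of 1085 UMIs a cell against 1526 in T cells.

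V transcripts were lowest after SHP099 in each of the 9 T cell states, and the constant regions of the same receptors were not. Over all T cells, Trbv genes held 5.89, 5.53 and 5.74 of 10000 UMIs in the combination mice, 3.62, 3.76 and 3.73 in SHP099 mice, 8.80, 9.47 and 9.80 in SX682 mice, and 9.80, 10.5 and 8.92 in vehicle mice. The 3 SHP099 mice were the lowest of the 12 and the combination mice the next lowest, and SX682 and vehicle mice overlapped. Trav genes averaged 1.35 ± 0.143 of 10000 UMIs in combination mice, 0.866 ± 0.0267 in SHP099 mice, 2.34 ± 0.236 in SX682 mice and 2.76 ± 0.122 in vehicle mice (SD, n = 3 each). The constant genes Trac, Trbc1 and Trbc2 summed to 11.7 ± 0.543 in combination mice, 13.2 ± 0.533 in SHP099 mice, 11.0 ± 1.43 in SX682 mice and 9.21 ± 0.270 in vehicle mice. Trac alone overlapped, at 3.23, 3.73 and 3.63 in SHP099 mice and 3.29, 3.22 and 4.07 in vehicle mice. The ratio of V to constant UMIs was 0.605 ± 0.0212 in combination, 0.347 ± 0.00940 in SHP099, 1.07 ± 0.0752 in SX682 and 1.36 ± 0.108 in vehicle mice. These summed levels are descriptions, with no test.

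**Figure D1:**
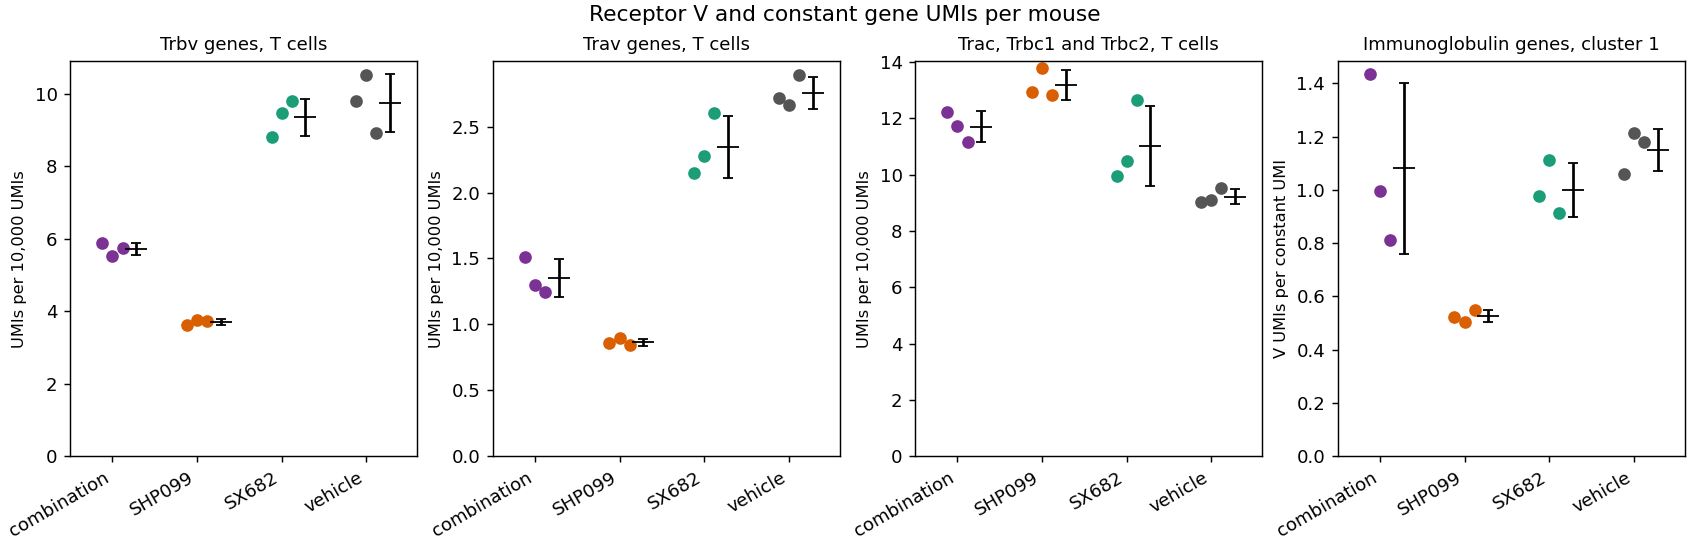
Summed UMIs of Trbv, Trav and constant genes per 10000 UMIs of all T cells (linear axes), and the ratio of immunoglobulin V to constant UMIs in B cells of cluster 1; 1 point per mouse, bars at the mean with error lines of 1 SD over 3 mice. The 3 SHP099 mice lie between 3.62 and 3.76 for Trbv, below all others, while their constant genes lie at 12.8 to 13.8, above all vehicle mice.

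The lower level appeared state by state. The SHP099 mean was 0.327 to 0.587 of the vehicle mean for Trbv in 9 of 9 states, with no overlap between mice in 9. For Trav it was 0.160 to 0.496 of the vehicle mean, lower in 9 of 9. Constant genes were 1.25 to 1.90 times the vehicle mean, higher in 9 of 9 states. In the combination the Trbv mean was 0.488 to 0.915 of the vehicle mean, lower in 9 of 9 states and without overlap in 7. It was 1.19 to 2.08 times the SHP099 mean, higher in 9 of 9. SX682 against vehicle had no common direction (0.709 to 1.47 of the vehicle mean, lower in 5 states and higher in 4). Mice with few cells of a state enter these state means with the same weight as others.

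Immunoglobulin genes of B cells, which are assembled in the same way and belong to another cell type, were set beside this. In the authors' cluster 1 of all cells, which carries the B cell gene Cd79a, the ratio of UMIs of 348 immunoglobulin V genes to those of 6 constant genes was 1.44, 0.994 and 0.811 in the combination mice, 0.524, 0.503 and 0.550 in SHP099 mice, 0.976, 1.11 and 0.912 in SX682 mice, and 1.06, 1.21 and 1.18 in vehicle mice. The SHP099 capture had the lowest values here too, and the combination mice overlapped the others. A difference between captures in how transcript starts were read, and a difference between treatments, cannot be told apart.

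Single V genes were tested in CD8 T cells, the cytotoxic lineage and the largest set of 1 lineage. UMIs were summed for each mouse over states T1, T2, T3, T5 and T9, giving 236165 to 1341237 UMIs a mouse, of which 266 to 1661 were V gene UMIs. Cd8b1, a chain of the CD8 coreceptor, stood at 3.91 to 12.2 of 10000 UMIs in these 5 states, against 0.298 in T8 and 1.62 in T4. T3 also held Trdc, the delta chain constant gene, at 0.766 of 10000 UMIs, against 4.97 in T8. Of 6764 genes that passed the filter on low counts, 20 were V genes (17 Trbv and 3 Trav), and 143 V genes were not tested. Values are CPM, the UMIs of a gene scaled to a common total a mouse, folds are log2, and calls are at an adjusted p below 0.05 in edgeR's quasi-likelihood test with Benjamini-Hochberg adjustment over all genes. Vehicle mice enter 3 of the 5 comparisons and combination mice enter 3, so the comparisons share samples. The mice of 1 treatment came from 1 capture, so these p-values do not cover the spread between captures.

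SHP099 against vehicle had the most V genes called. Of 20 tested V genes, 9 fell (7 Trbv and 2 Trav) and 0 rose, where 3.86% of all genes tested were called lower, 2.62% higher and 6.48% in either direction. The median log2 fold change of the 20 V genes was -1.49, against 0.02 over all genes, and all 20 were negative. Mice of the treatments did not overlap for 13 of 20 V genes, against 26.0% of all genes.

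Trbv15 had 30.4, 34.0 and 19.9 CPM in SHP099 mice, against 167, 70.5 and 87.1 CPM in vehicle mice. It fell by 2.04 on the log2 scale (SE 0.33, edgeR adjusted p = 0.000298). Trbv13-1 had 13.5, 13.3 and 27.6 CPM in SHP099 mice, against 93.4, 129.8 and 87.1 CPM in vehicle mice. It fell by 2.48 (SE 0.47, edgeR adjusted p = 0.00166). The mice did not overlap for either gene, and the highest SHP099 mouse stayed under the lowest vehicle mouse.

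Trbv13-3 had 16.9, 17.7 and 13.8 CPM in SHP099 mice, against 45.7, 81.6 and 61.0 CPM in vehicle mice, a log2 fold change of -1.88 (SE 0.36, edgeR adjusted p = 0.00198). Trbv3 had 33.8, 19.2 and 23.0 CPM in SHP099 mice, against 87.4, 85.3 and 47.9 CPM in vehicle mice, a log2 fold change of -1.60 (SE 0.33, edgeR adjusted p = 0.00359). Neither gene's groups overlapped. The other called genes were Trbv12-2 (-1.87), Trbv19 (-1.64), Trbv31 (-2.95), Trav4-4-dv10 (-2.70) and Trav12-2 (-2.39), with edgeR adjusted p of 0.00825 to 0.0371. Trav12-2 had 17.4 to 22.2 CPM in vehicle mice and at most 11.1 CPM in any other mouse. Trav4-4-dv10 had at most 7.38 CPM in SHP099 and combination mice. It had 8.71 to 37.1 CPM in vehicle mice and 3.03 to 27.6 CPM in SX682 mice. A filter on low counts can admit such genes through their higher treatments alone, which favours a fall against vehicle. Its part in these Trav calls, here and in the combination, was not tested.

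Trbv15, Trbv13-1 and Trbv13-3 passed the threshold without any 1 of the 6 mice. Trbv12-2 did not without vehicle mouse 1 (log2 -0.93, edgeR adjusted p = 0.352), nor did Trbv3 (edgeR adjusted p = 0.0565). Trbv31 did not without vehicle mouse 2 (edgeR adjusted p = 0.297), SHP099 mouse 1 or SHP099 mouse 3. Trbv19 did not without SHP099 mouse 2 or 3 or vehicle mouse 1 or 2. Trav4-4-dv10 did not without SHP099 mouse 1 or 3 or vehicle mouse 1 or 2, and Trav12-2 did not without SHP099 mouse 2 or 3 or any 1 vehicle mouse. Without vehicle mouse 2 the count of called V genes was 5.

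The combination against vehicle had 3 V genes called, all lower, where 1.58% of all genes were called lower, 1.63% higher and 3.21% in either direction. Trbv15 had 8.87, 21.2 and 16.3 CPM in combination mice, against 167, 70.5 and 87.1 CPM in vehicle mice. It fell by 2.94 on the log2 scale (SE 0.37, edgeR adjusted p = 4.43e-05), with no overlap. The mix of states in the CD8 sum differed between treatments. T2 held 72 of 226, 28 of 164 and 22 of 101 assigned CD8 cells in combination mice. It held 12 of 135 and 13 of 79 in vehicle mice 1 and 2. Trbv15 was in 1 of 199 assigned T2 cells. How far this mix accounts for the fall of Trbv15, here or against SX682, was not tested. Trav4-4-dv10 had 3.33, 1.32 and 7.00 CPM in combination mice, against 25.8, 37.1 and 8.71 CPM in vehicle mice, a log2 fold change of -2.80 (SE 0.74, edgeR adjusted p = 0.0353). Trbv4 had 5.55, 7.94 and 4.67 CPM in combination mice, against 33.8, 7.42 and 87.1 CPM in vehicle mice, a log2 fold change of -2.63 (SE 0.73, edgeR adjusted p = 0.0466). Its groups overlapped, through vehicle mouse 2.

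The median of the 20 V genes was -0.83 on the log2 scale, against -0.01 over all genes, and 5 of 20 had no overlap, against 20.2% of all genes. Trbv15 passed without any 1 mouse. Trav4-4-dv10 did not pass without combination mouse 1 or 2 or vehicle mouse 1 or 2. Trbv4 did not pass without any 1 of the 3 combination mice, vehicle mouse 1 or vehicle mouse 3. The count of called V genes was 1 without combination mouse 2 and 1 without vehicle mouse 1.

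The combination against SX682 had 4 V genes called, all lower, where 1.01% of all genes were called lower, 1.70% higher and 2.71% in either direction. Mice of the treatments did not overlap for 4 of 20 V genes, against 18.8% of all genes. Trbv15 had 8.87, 21.2 and 16.3 CPM in combination mice, against 98.1, 66.6 and 45.5 CPM in SX682 mice, a log2 fold change of -2.08 (SE 0.37, edgeR adjusted p = 0.00123). Trbv4 had 5.55, 7.94 and 4.67 CPM in combination mice, against 24.5, 40.9 and 38.1 CPM in SX682 mice, a log2 fold change of -2.50 (SE 0.65, edgeR adjusted p = 0.0327). The mice did not overlap for either gene. Trbv12-1 averaged 22.2 CPM in combination mice and 50.4 CPM in SX682 mice (log2 -1.14, SE 0.28, edgeR adjusted p = 0.0232), and Trbv13-2 averaged 46.7 CPM in combination mice and 90.9 CPM in SX682 mice (log2 -1.10, SE 0.28, edgeR adjusted p = 0.0321, with overlap).

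Trbv15 passed without any 1 of these 6 mice. Trbv4 did not without any 1 combination mouse, SX682 mouse 2 or SX682 mouse 3. Trbv13-2 did not without any 1 combination mouse or SX682 mouse 3, and Trbv12-1 did not without combination mouse 1 or 3 or SX682 mouse 3. The count of called V genes was 1 without SX682 mouse 3, and 2 without combination mouse 1 or without combination mouse 2.

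In 2 comparisons edgeR called 0 V genes. SX682 against vehicle had 6 of 20 at an unadjusted p below 0.05, a lowest adjusted p of 0.498 and a median log2 of -0.13, where 0.251% of all genes were called, 0.163% lower and 0.0887% higher. Mice did not overlap for 3 of 20 V genes, against 12.4% of all genes. The combination against SHP099 had 8 of 20 at an unadjusted p below 0.05, a lowest adjusted p of 0.0506 and a median log2 of 0.59, where 1.01% of all genes were called, 0.325% lower and 0.680% higher. Mice did not overlap for 3 of 20 V genes, against 19.2% of all genes. DESeq2 gave no adjusted p for any V gene in either comparison, because its filter on low counts left them out.

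**Figure D2:**
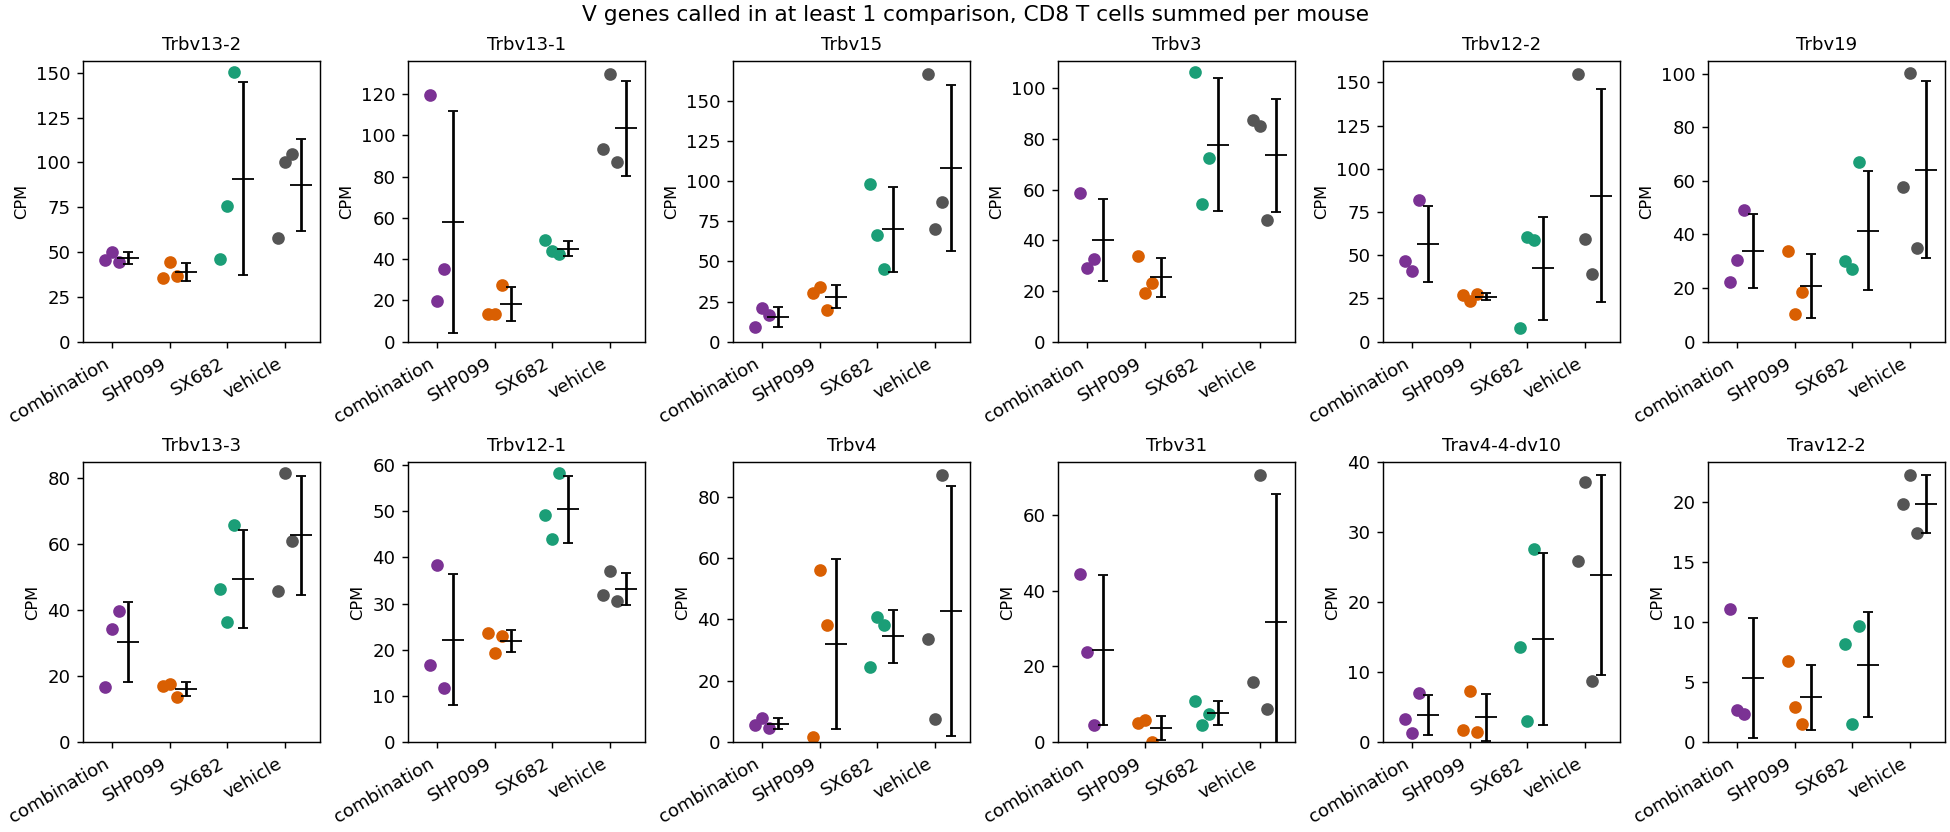
CPM in CD8 T cells (linear axes) of the 12 V genes called in at least 1 comparison; 1 point per mouse, bars at the mean and error lines of 1 SD over 3 mice, which are clipped at 0. Trbv15 lies at 8.87 to 34.0 CPM in the 6 mice that received SHP099 alone or in the combination, below the 45.5 to 167 CPM of the other 6.

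The relative use of the Trbv genes was set beside their levels. Each cell was assigned the Trbv gene with most of its UMIs, and a share is the percentage of a mouse's assigned CD8 cells. In SHP099 against vehicle, the shares of 1 of 24 detected Trbv genes had no overlap between mice, Trbv13-1 at 4.28 ± 1.03% in SHP099 mice and 8.73 ± 1.04% in vehicle mice (SD, n = 3 each). In the combination against vehicle there were 4 of 24: Trbv15 at 2.45 ± 0.972% in combination mice and 6.47 ± 2.34% in vehicle mice, Trbv4 at 1.12 ± 0.591% in combination mice and 8.79 ± 9.24% in vehicle mice, Trbv12-1 at 4.35 ± 1.60% in combination mice and 6.82 ± 0.582% in vehicle mice, and Trbv17 at 5.32 ± 1.70% in combination mice and 2.40 ± 0.986% in vehicle mice. The share of Trbv15 was 6.46 ± 2.02% in SHP099 mice. In the other comparisons the shares of 2 or 3 of 24 genes had no overlap. These shares were looked at after the levels and have no test.

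Some constant and CD3 genes of the same receptor complex were called in opposite directions. A list of 24 genes of the receptor complex and its signalling was used, 21 of them tested. SHP099 against vehicle had 2 of 21 higher and 3 lower, where 2.62% of all genes were called higher and 3.86% lower. Trbc2 and Trbc1, the beta chain constant regions, rose by 0.62 and 0.68 on the log2 scale (edgeR adjusted p = 0.00305 and 0.0317). Cd3e and Cd3g, the invariant signalling chains, fell by 0.69 and 0.72 (edgeR adjusted p = 0.00218 and 0.00101). Cd8b1 fell by 0.59 (edgeR adjusted p = 0.0306). The alpha chain constant gene Trac, Cd3d and Cd247 were not called, at log2 0.05, -0.26 and 0.10 (edgeR adjusted p = 0.901, 0.196 and 0.806).

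The combination against vehicle had 1 of 21 higher and 1 lower, where 1.63% of all genes were called higher and 1.58% lower. Trbc2 rose by 0.49 (edgeR adjusted p = 0.0307) and Cd3g fell by 0.70 (edgeR adjusted p = 0.00274). The combination against SX682 had 1 of 21 called, Cd3g at -0.65 (edgeR adjusted p = 0.00334), where 1.01% of all genes were called lower. In both other comparisons edgeR called 0 of these 21 genes, with 1 at an unadjusted p below 0.05 in SX682 against vehicle and 2 in the combination against SHP099, where 0.251% and 1.01% of all genes were called. Ptpn11, which encodes SHP2, and the kinases Lck and Zap70 were among the genes not called in any comparison.

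In CD8 T cells no V gene dominated when the 12 mice were weighted equally. The leading beta genes were Trbv13-2 at 9.01 ± 1.94% of assigned cells (SD, n = 12 mice) and Trbv13-1 at 8.10 ± 6.10%. Trbv29, Trbv3, Trbv16, Trbv12-2, Trbv1, Trbv4, Trbv12-1 and Trbv19 followed at 5.86% to 7.50%. The largest spreads were those of Trbv4 (6.74 ± 6.90%) and Trbv13-1, the second through combination mouse 1 alone, at 26.1% against 3.05% to 9.63% in the other 11 mice. The 10 leading alpha genes ran from Trav12-2 at 5.70% and Trav3-3 at 5.42% down through Trav13-1, Trav13-4-dv7, Trav7-5, Trav4-4-dv10, Trav8d-2, Trav12-1 and Trav6-7-dv9 to Trav8n-2 at 2.96%. The 10 most used genes held 73.5% of Trbv UMIs and 38.9% of Trav UMIs over all T cells.

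T cell states differed in which Trbv genes they used, as a description with no test, since the states were clustered from the same cells and the genes set side by side were chosen after their values were seen. T3, a CD8 state, and T4, a mixed state with Cd4 at 1.54 and Cd8b1 at 1.62 of 10000 UMIs, were the largest. Trbv12-1 and Trbv12-2 together took 14.9 ± 4.55% of assigned cells in T3 and 6.01 ± 2.75% in T4 (SD, n = 12 mice), higher in T3 in 12 of 12 mice. T1, a CD8 state with the naive markers Lef1 and Ccr7 at 5.96 and 2.87 of 10000 UMIs, had 17.0% and T4 5.38% in the 10 mice with enough cells, higher in T1 in 10 of 10. The CD8 states T9 and T5 had lower means than T3. The Trbv12 genes took 9.75% in T9 and 16.1% in T3 of the same 8 mice, lower in T9 in 7. They took 9.51% in T5 and 14.3% in T3 of the same 9 mice, lower in T5 in 7. Against T4, T9 was higher in 6 of 8 mice and lower in 1. In T6, the state with Foxp3, the regulatory T cell factor, at 1.95 of 10000 UMIs, the same genes took 3.92 ± 3.74%, below T3 in 12 of 12 mice.

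Trbv31 lies beyond the constant genes, in the opposite orientation to the other Trbv genes. Against T4, Trbv31 had the reverse distribution in T3 and T1. It took 1.48 ± 1.47% of assigned cells in T3 and 6.78 ± 3.10% in T4, lower in T3 in 12 of 12 mice. In T1 against T4 it was lower in 9 of 10 mice. The pattern held in mice of all 4 treatments. In T6 Trbv31 took 5.02 ± 9.33%, higher than in T3 in 5 of 12 mice and lower in 3. It was lower in T6 than in T4 in 10 of 12 mice. The 3 Trbv13 genes together did not separate T3 (24.3 ± 7.66%) and T4 (24.6 ± 5.31%).

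**Figure D3:**
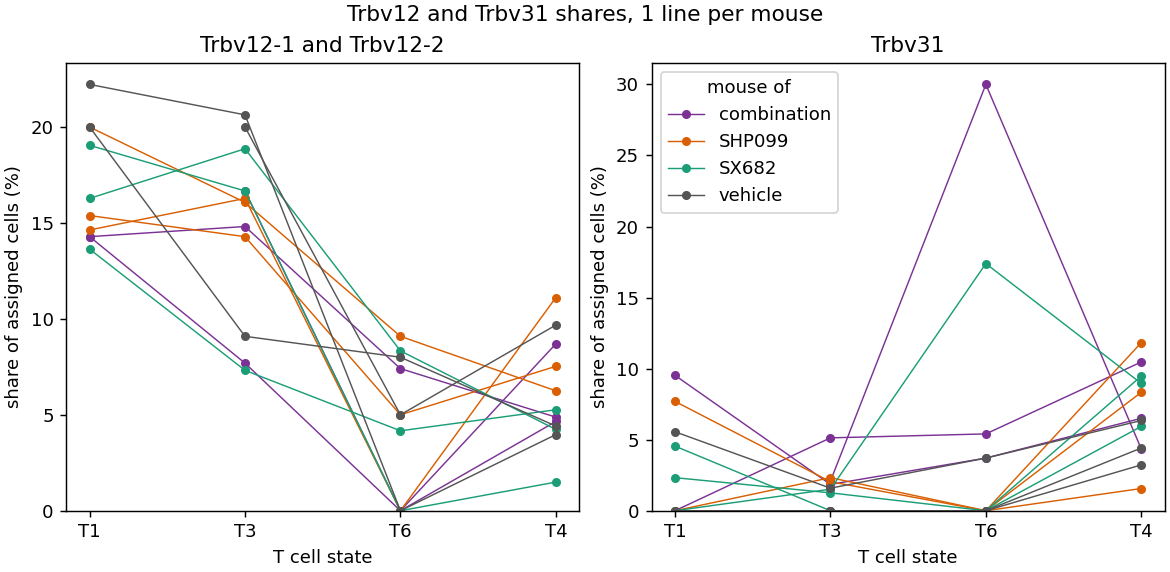
Share of assigned cells with Trbv12-1 or Trbv12-2, and with Trbv31, in states T1, T3, T6 and T4 (percent, linear axes); 1 line per mouse, coloured by treatment. For the Trbv12 genes every mouse is higher in T3 than in T4, and for Trbv31 every mouse is lower.

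**Figure D4:**
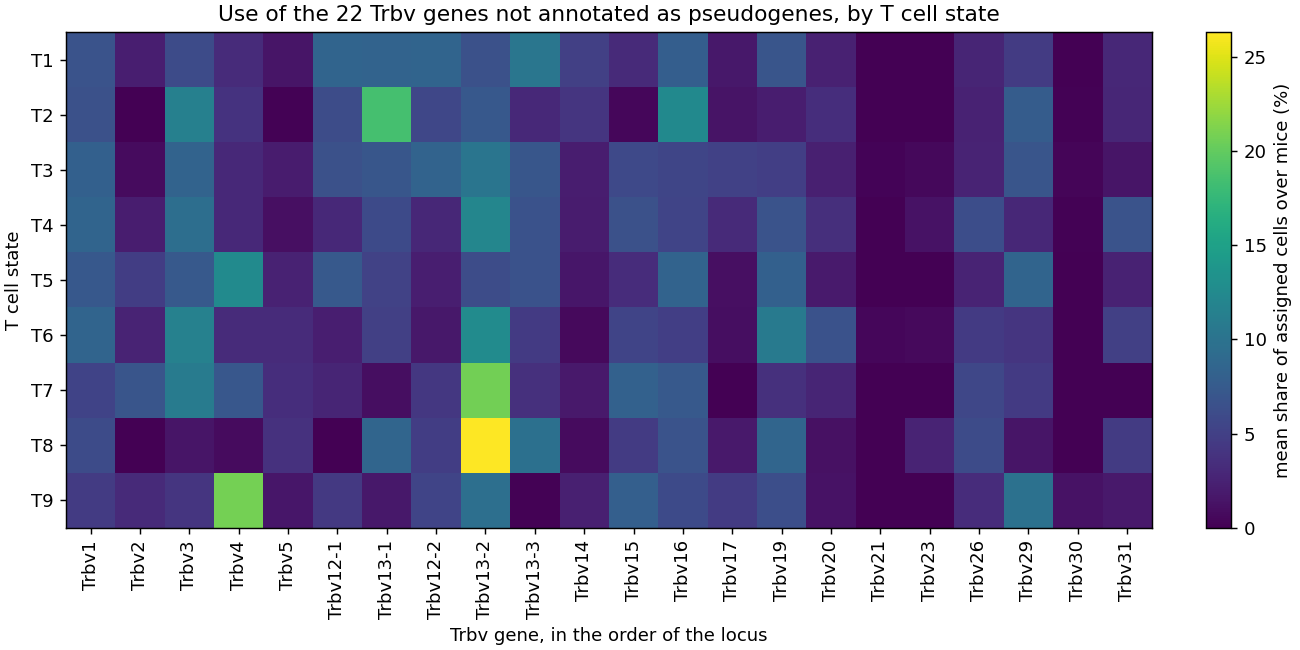
Mean share of assigned cells (percent, colour scale) of the 22 Trbv genes not annotated as pseudogenes, in locus order, in each T cell state, over mice with at least 10 assigned cells. Trbv13-2 leads in T3, T4, T6, T7 and T8, Trbv4 leads in T5 and T9 at 12.6% and 20.9%, and Trbv13-1 leads in T2 at 18.6%.

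T8 had the constant and V genes of gamma delta receptors. That lineage uses no Trbv gene in its receptor, and its delta chain can join Trav genes with dv in their symbol. Trdc stood at 4.97, Trdv4 at 4.68 and Tcrg-V6 at 1.66 of 10000 UMIs, with the cytokine gene Il17a at 2.47. It still held Trbv at 5.26 of 10000 UMIs, against 5.67 in T3, while Trav was at 0.712, against 1.62 in T3. Within T8 the chains kept apart: of 143 cells with a Trdc or Trdv UMI, 9.09% (13) had a Trbv UMI and 0.699% (1) a Trav UMI. Of the 275 cells without one, 48.4% (133) had a Trbv UMI and 13.1% (36) a Trav UMI. Median depths were close, 1247 and 1306 UMIs a cell.

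The beta genes seen in T8 were weighted to the Trbv13 family, which encodes the Vβ8 chains. Trbv13-1, Trbv13-2 and Trbv13-3 together took 44.7 ± 12.4% of assigned T8 cells, against 28.3 ± 5.47% in T3 and 24.9 ± 5.06% in T4 of the same 6 mice (SD), higher in T8 in 6 of 6. Trbv13-2 alone took 23.0% (32 of 139). Zbtb16, the transcription factor of innate-like T cells, stood at 0.513 of 10000 UMIs in T8 and at 0 to 0.031 in the other states. Whether it lay in T8 cells with or without a Trdc or Trdv UMI was not tested. Trav11, the alpha gene of invariant natural killer T cells, and its copies Trav11d and Trav11n had 2, 1 and 3 UMIs in all T cells. The Trav11 UMIs were in T3, those of Trav11n in T4, and only the 1 of Trav11d was in T8. Their use could not be followed here. Trav11 and Trav11d were identical over 342 aligned bases, and reads of such copies may be split between them or dropped.

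Genes with dv in their symbol can join to either the alpha or the delta chain. The 10 such Trav genes together had 0.149 of 10000 UMIs in T8 and 0.381 in T3. Trav4-4-dv10 had the most, 131 UMIs, 43 of them in T9. Trav13-4-dv7 had 100 UMIs, 49 of them in T3. Trav6-7-dv9, Trav14d-3-dv8, Trav21-dv12, Trav15-2-dv6-2, Trav15-1-dv6-1, Trav16d-dv11 and Trav15d-1-dv6d-1 had 87 to 4 UMIs, and Trav15d-2-dv6d-2 had 0. Trav1, the alpha gene of mucosal-associated invariant T cells, had 36 UMIs in 23 cells, of which 15 UMIs were in 5 cells of T5.

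Evenness was measured as the percentage of pairs of cells of 1 mouse and state that shared the same V gene. The inverse of the mean percentage is an effective number of genes in equal use. Mice with at least 20 assigned cells in a state were used. For Trbv the pair share was 5.49 ± 1.46% in T1 (6 mice), 6.28 ± 0.572% in T3 (12 mice), 6.52 ± 0.866% in T4 (12 mice), 5.67 ± 1.88% in T5 (4 mice), 7.68 ± 2.90% in T6 (9 mice) and 7.19 ± 0.0732% in T8 (2 mice). T7, a state with Mki67 at 3.58 of 10000 UMIs that was given no name, had 1 such mouse, at 9.05%. The other 6 values correspond to 13 to 18.2 effective genes. T2 and T9 were less even, at 24.8 ± 15.1% (3 mice, all of the combination) and 12.8 ± 11.2% (4 mice), or 4.03 and 7.80 effective genes. Counted by UMIs in place of cells, the effective number was 4.12 in T2 and 6.79 in T9, against 7.79 in T6 and 8.13 in T8, so T9 then lay close to both.

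A shared gene within mice was compared with a shared gene between mice. Pairs were pooled over mice, so mice with many assigned cells weighed most. In T2 combination mouse 1 held 72 of 199 assigned cells for Trbv and 22 of 64 for Trav. In T9 SX682 mouse 3 held 94 of 245 for Trbv and 61 of 132 for Trav. In T2, 28.6% of cell pairs of 1 mouse shared a Trbv gene, against 7.02% of pairs from different mice. In T9 the values were 10.1% and 7.62%, and in T5 they were 7.09% and 6.00%. In T3 they were 6.46% and 6.37%, and in T4 6.58% and 6.51%. The alpha chain, read in fewer cells, ran the same way in T2 at 13.7% within mice and 2.66% between mice. It was 6.18% and 3.20% in T9, and 4.65% and 2.58% in T5. In T1 it was 2.95% and 2.05%, from 11 sharing pairs within mice. In T6 the Trav values were 2.83% and 2.46%, and in T3 2.81% and 2.80%. In T4, T7 and T8 they were lower within mice, at 2.02% and 2.20%, 0.893% and 1.46%, and 0% and 1.28%. Counted by cells, Trav use was broader than Trbv use, with 37.7 effective genes in T3 (8 mice) and 51.6 in T4 (10 mice). Counted by UMIs, the Trav numbers of both states were lower and nearer those of Trbv, as given in the last section. Near-identical copies, which 74 Trav genes and no Trbv gene have, may raise the Trav number where reads are split. Their part was not tested.

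**Figure D5:**
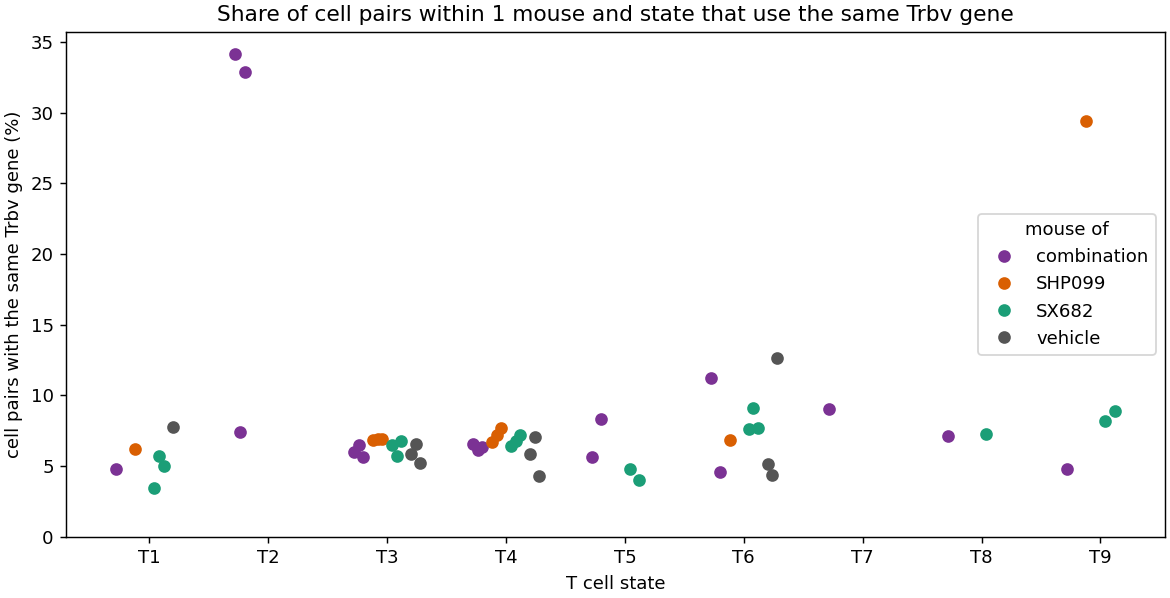
Percentage of pairs of cells of 1 mouse and state that share their Trbv gene (linear axis), by T cell state; 1 point per mouse with at least 20 assigned cells, coloured by treatment. Most mice lie near 6%, and the 3 highest points are T2 of combination mice 1 (34.2%) and 3 (32.9%) and T9 of SHP099 mouse 2 (29.4%).

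T2 was the effector state, with Klrg1 at 2.03 and Gzma, a granzyme of killer cells, at 26.0 of 10000 UMIs. Combination mice 1 and 3 each had their own leading gene there. Combination mouse 1 used Trbv13-1 in 41 of 72 assigned cells (56.9%, 95% Clopper-Pearson interval 44.7 to 68.6%). Combination mouse 3 used Trbv16 in 12 of 22 (54.5%, interval 32.2 to 75.6%). In combination mouse 2 Trbv1 and Trbv14 tied, each in 5 of 28 (17.9%). This mouse had 13.5 effective genes, against 2.93 and 3.04 in mice 1 and 3. Mice of SHP099, SX682 and vehicle had at most 13 assigned T2 cells each, so T2 use was not compared between treatments. Intervals cover counting error only, since cells of a mouse may descend from 1 cell.

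The alpha chain of these cells was read in a few of them. All 6 T2 cells of combination mouse 1 with Trbv13-1 and an assigned Trav gene carried Trav8d-2. Trav8d-2 was the leading alpha gene of its T2 cells, in 9 of 22 (40.9%). Trbv13-1 with Trav8d-2 was found in 10 of its 92 cells with both chains, 6 in T2, 2 in T3 and 2 in T5, and in 0 of 776 such cells of the other 11 mice. Trbv13-1 took 12.8% (10 of 78) of this mouse's T3 cells, 12.2% (5 of 41) of its T5 cells and 1.16% (1 of 86) of its T4 cells. The effective number of T2 was 2.98 to 4.96 without any 1 of the 3 mice, and 6.92 over the 7 mice, of any treatment, with at least 10 assigned cells.

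Trbv4 led in T9, the state with the inhibitory receptors Pdcd1 and Lag3 at 2.35 and 2.48 of 10000 UMIs, and in T5, the dividing state with Mki67 at 4.65. In the 8 mice with at least 10 assigned T9 cells it took 20.9 ± 21.4% of T9 cells and 4.03 ± 2.43% of T3 cells (SD), higher in T9 in 5 of 8 mice and lower in 2. By mouse it was found in 0 of 21, 0 of 10 and 0 of 4 T9 cells of the combination, 0 of 4, 12 of 22 and 6 of 16 of SHP099, 0 of 6, 3 of 28 and 13 of 94 of SX682, and 1 of 17, 1 of 5 and 8 of 18 of vehicle. It was highest in SHP099 mouse 2 (54.5%), vehicle mouse 3 (44.4%) and SHP099 mouse 3 (37.5%), against 13.8% in SX682 mouse 3, and was in no T9 cell of the 3 combination mice. In SHP099 mice 2 and 3 it also took 5 of 17 and 6 of 14 T5 cells.

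Alpha genes of Trbv4 cells were read in few cells, and the leading one differed between mice. In vehicle mouse 3 the leading partner in T9 was Trav7-5 (3 of 4 cells with an assigned Trav gene), and in SX682 mouse 3 it was Trav14n-3 (3 of 7). SHP099 mouse 3 had Trav12-1 and Trav9n-4 in 1 cell each, and SHP099 mouse 2 had no T9 cell with Trbv4 and an assigned Trav gene. Trav4-4-dv10 was the second partner in several mice, in 1 T9 cell of vehicle mouse 3, 2 T9 cells of SX682 mouse 3 and 1 T5 cell of SHP099 mouse 3. T9 of SX682 mouse 3 was led by Trbv19, in 16 of 94 cells (17.0%). In T5 of combination mouse 2, Trbv2 took 10 of 51 cells, 4 of them with Trav3-4. Without SHP099 mouse 2 the effective number of T9 was 13.7 in place of 7.80. The low mean evenness of the 4 mice used for T9 thus rests on that mouse. Vehicle mouse 3 and SHP099 mouse 3 had too few assigned T9 cells to enter that mean, and Trbv4 took 8 of 18 and 6 of 16 of them. Combination mouse 2 and vehicle mouse 1 were left out too, with Trbv4 in 0 of 10 and 1 of 17. Whether low evenness recurred in mice left out was not tested.

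Both chains were assigned in 868 cells, which held 520 different pairs of V genes. Of 769 combinations of a mouse and a pair, 703 were seen in 1 cell, 60 in 2 or 3 cells and 6 in 4 or more. After Trbv13-1 with Trav8d-2 in combination mouse 1, the most frequent were in SX682 mouse 3: Trbv26 with Trav3-3 in 6 of its 200 cells, found in 1 of 668 cells of other mice, and Trbv13-1 with Trav19 in 5, found in 0. Vehicle mouse 3 had Trbv4 with Trav7-5 in 4 of 49 cells, 3 of them in T9. Combination mouse 2 had Trbv2 with Trav3-4 in 4 of 69. Combination mouse 1 had Trbv3 with Trav13-1 in 4, but other mice also had it in 4.

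Over the CD8 states pooled, the effective number of Trbv genes was 10.0, 16.6 and 12 in combination mice and 16.1, 12.8 and 12.5 in SHP099 mice. It was 18.4, 17.0 and 16.1 in SX682 mice, and 15.1, 15.4 and 13.6 in vehicle mice. The ranges of the combination, SHP099 and vehicle mice overlapped. SX682 mice lay above all vehicle mice. Combination mouse 1, with the Trbv13-1 cells, was the lowest of the 12. The number of assigned CD8 cells ran from 67 to 331 a mouse.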

How the data were processed

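Single-cell RNA of 12 mice in 4 captures was used. The deposited matrix holds raw UMI counts per gene and cell, made with Cell Ranger on mm10 per the submitters' processing notes (version not given in the sources used here); cells were tagged by mouse per the labels' protocols, and clusters are the authors'. How they treated doublets is not given in the sources used here, and no doublet caller was run here. Bulk RNA of sorted Epcam+ tumour cells was not used here. No column of per-sample values went unused.

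Hyphens, written as dots in the deposited symbols, were restored, and all 163 genes were found in GENCODE vM21. Each T cell was assigned the Trbv and the Trav gene with most UMIs (at least 1), ties left out: 3231 cells (49.2%) for Trbv with 157 tied, and 1370 (20.9%) for Trav with 93 tied. Of the Trbv cells 490 had a second Trbv gene, 100 of them at 2 or more UMIs. Shares are given for mice with at least 10 assigned cells.

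Counts summed per mouse (at least 10 cells) were tested with edgeR 4.0.16 in R 4.3.3 (filterByExpr, TMM, quasi-likelihood F test, 1 fit for 4 treatments). DESeq2 1.42.0 was an alternative, beside other scaling, no filter, a replicate block, 2 treatments alone, other cells and leaving out each mouse. On simulated counts for SHP099 against vehicle (6543 genes) edgeR recovered 48 of 99 genes changed by a log2 of 1 and 88 of 96 changed by a log2 of 2, with 8 false calls. Genes named are those called in any comparison, the 10 leading Trbv and Trav genes of CD8 cells, each state's leading gene, genes above 20% of a mouse's cells in a state, Trav11, Trav1 and dv genes. The genes and lists were chosen with earlier results of these data known. Clopper-Pearson intervals are at 95%.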

Additional observations from a re-analysis of the deposited data

Results flagged for a closer look

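Trbv UMIs also appeared in cells outside the T cell table. In the authors' cluster 15 of all cells, 37.9% of cells (756 of 1995) had a Trbv UMI, and in cluster 16, 34.3% (472 of 1375), against 1.70% of neutrophils. These clusters carry the macrophage gene C1qa at 24.7 and 12.8 of 10000 UMIs, and are deep, with median UMIs a cell of 6940 and 8134. Tumour clusters 21 and 23 of like or greater depth (medians 7395 and 15143) had 4.73% and 5.50%. With every cell thinned to 1000 UMIs, the shares were 11.6% and 9.62% in clusters 15 and 16, against 40.4% in T cells and 1.31% in neutrophils. Of cells with at least 3 Trbv UMIs, 49.6% (167 of 337) in cluster 15 and 43.8% (99 of 226) in cluster 16 held a single Trbv gene, against 69.7% (823 of 1180) in T cells. The source of these UMIs was not tested.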

How the results depend on the processing

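Counts of called V genes (edgeR adjusted p below 0.05 unless DESeq2 is named) were higher with no filter on low counts in all 5 comparisons. Combination against vehicle, 3 as reported: 1 with DESeq2 (8 V genes with an adjusted p), 5 with no filter, 1 with both treatments fitted alone, 7 in all T cells, 0 in T1 alone (1 V gene tested), and 1 to 3 without 1 mouse. SHP099 against vehicle, 9 as reported: 14 with no filter, 18 in all T cells, 0 in T1 alone, 5 to 8 without 1 mouse. SX682 against vehicle, 0 as reported: 3 with no filter, 1 fitted alone, 0 without any 1 mouse. Combination against SHP099, 0 as reported: 2 with DESeq2 size factors, 6 with no filter, 1 in all T cells, 0 to 2 without 1 mouse. Combination against SX682, 4 as reported: 0 with DESeq2 (no V gene had an adjusted p), 10 with no filter, 2 in all T cells, 0 in T1 alone, 1 to 5 without 1 mouse. A fit with the tag number as a replicate block gave 4 V genes for the combination against SHP099, and elsewhere stayed within 1.5 times the reported count. Mice of the same number correlated at -0.0374 to 0.0957 over 18 pairs, none over 0.1. These values gave no sign of a pairing by number, but with 3 mice a treatment they cannot exclude one. Of single called genes over the alternatives, 134 results kept the call, 45 lost it and 0 reversed; Trbv15 against vehicle, and Trbv13-1 and Trbv13-3 in SHP099, kept it in all 12 run. The effective number of Trbv genes counted by UMIs in place of cells was 10.0 in T1, 12 in T3, 11.3 in T4, 9.83 in T5, 7.79 in T6 and 8.13 in T8, and of Trav genes 13.5 in T3, 20.8 in T4 and 12.3 in T5. With 2 UMIs needed it was 10.5 in T1, 13.5 in T4 and 15.8 in T8. With 10 cells needed it was 12.8 in T5, 9.84 in T8 and 6.92 in T2. Without 1 mouse it was 17.0 to 19.9 in T1, 2.98 to 4.96 in T2, 15.7 to 16.1 in T3, 14.9 to 15.6 in T4, 16.1 to 20.9 in T5, 12.3 to 14.2 in T6, 13.8 to 14.0 in T8 and 6.45 to 13.7 in T9, and for Trav 34.4 to 39.9 in T3, 46.5 to 55.4 in T4 and 19.1 to 23.1 in T5. The causes were not tested. V UMIs a mouse limit the test to 20 of 163 genes.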
